A study of Mus musculus with 4 samples.

Results

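The genes described here are the nuclear genes of respiratory complexes I, II, III and V in cardiac progenitor cells (CPCs), and they were chosen by name: every symbol that starts with Nduf, Uqcr or Atp5, together with Sdha, Sdhb, Sdhc and Sdhd. The names gave 75 genes of the 20701 gene symbols in the deposited table, namely 38 complex I subunits, 8 Ndufaf assembly factors of complex I, 4 genes of complex II, 8 of complex III and 17 of complex V. Where a gene had several transcripts, the one that carried most reads was kept. A total of 72 of the 75 genes passed the filter on low values, a mean of at least 0.5 RPKM (reads corrected for transcript length and for the library's total of counted reads) over the 4 libraries, and the 3 that did not (Ndufs5, Atp5g1 and Atp5l) are described by their values.

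The samples were mouse CPCs at day 5 of directed differentiation of E14 Tg(Nkx2-5-EmGFP) embryonic stem (ES) cells, a line that carries a green fluorescent reporter for the cardiac factor Nkx2-5, and both groups were sorted for GFP before polyA RNA was sequenced. One group came from 2 pools of control reporter cells and the other from 2 pools that stably expressed short hairpins against Baf60c (Baf60c KD), where Baf60c, the product of Smarcd3, belongs to the SWI/SNF complex, which remodels chromatin. Control cells carried the pLKO vector, and the labels do not say which hairpin each Baf60c KD pool held. A pool is a transduced ES cell population, and the sources used here do not say whether the 2 pools of a group came from separate transductions. The p-values rest on the spread between 2 libraries per group, which the fit draws towards the spread of genes of similar level. The comparison asks which transcripts differ when Baf60c is reduced.

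The mitochondrial respiratory chain moves electrons from NADH (through complex I) and from succinate (through complex II) to ubiquinone and on to complex III, cytochrome c and complex IV, and complex V, the ATP synthase, uses the resulting proton gradient to make ATP. Complexes I, III and V combine subunits made in the nucleus with a few encoded by mitochondrial DNA, whereas complex II is encoded in the nucleus alone. Complex I is built from a matrix arm, which binds NADH and carries the iron-sulfur clusters, and a membrane arm, which pumps protons, and assembly factors such as the Ndufaf proteins help to build it without staying in it. Heart muscle depends on oxidative phosphorylation, and its mitochondria gain in number and structure as cardiomyocytes mature. The subunits encoded by mitochondrial DNA were not analysed here.

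Counted reads summed over all transcripts, several of which can belong to 1 gene, were between 22064092 and 30398452 per library. With 1 transcript per gene they were between 12623031 and 17649363. Smarcd3 stood at 174 and 167 RPKM in the control libraries and at 46.4 and 46.3 RPKM in the Baf60c KD libraries, so the targeted transcript was reduced as labelled. Of the 6 CPC markers looked up, all were detected, 4 were lower (Nkx2-5, Isl1, Mef2c and Tbx5) and 2 higher (Gata4 and Hand2) in Baf60c KD. All 8 cardiomyocyte markers were lower, and their summed level was 4683 and 4579 RPKM in control against 1998 and 2057 RPKM in Baf60c KD. The summed level of markers of other cells was low in control and higher in Baf60c KD. For 6 endothelial genes it was 11.7 to 12.8 against 28.7 to 29.4 RPKM, where Tek, Kdr and Pecam1 were higher but Cdh5 and Tie1 were lower. The sum was 5.98 to 6.37 against 20.9 to 21.9 RPKM for 6 blood genes, 5.78 to 6.57 against 20.8 to 22.1 RPKM for 6 epicardial genes, 12.7 to 13.3 against 33.6 to 33.9 RPKM for 6 fibroblast genes and 0.67 to 0.99 against 2.89 to 3.47 RPKM for 6 ES cell genes. The leukocyte gene Ptprc was at 0 in every library, Pou5f1 and Nanog stayed under 0.6 RPKM, and the endothelial gene Emcn under 0.1 RPKM. These marker levels moved with the same contrast as the values that follow, and their part in them was not tested. In bulk samples, fewer cells of a type and less RNA per cell cannot be told apart.

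Many respiratory complex subunits, 29 of the 62 tested, were modestly lower in Baf60c KD CPCs, against 18.2% of all genes tested. The summed level of the 38 complex I subunits was 1603 and 1538 RPKM in control and 1422 and 1414 RPKM in Baf60c KD, a difference of −9.70% of the control mean. Without the paralogs Ndufa4 and Ndufa4l2 this difference was −7.27%, beside −7.36% in complex II, −4.55% in complex III and −6.64% in complex V. The sum of complex II was 250 and 243 RPKM in control against 226 and 230 RPKM in Baf60c KD, that of complex III 458 and 435 RPKM against 423 and 429 RPKM, and that of complex V 1655 and 1603 RPKM against 1530 and 1512 RPKM. In each of these sums both Baf60c KD libraries were below both control libraries. The sum of the 8 Ndufaf genes was 53.9 and 52.9 RPKM in control against 60.1 and 57.1 RPKM in Baf60c KD, here with both Baf60c KD libraries above both control libraries. The sums were not tested, and the most abundant genes weigh most in them.

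Gene by gene, 30 of the 72 genes tested were called lower and 6 higher at an adjusted p under 0.05 (limma on log2(RPKM + 1), Benjamini-Hochberg adjustment over all 11371 genes tested). Over all genes tested, 18.2% were called lower and 36.1% higher, 54.3% in all. Thus the respiratory genes were called lower at a rate of 41.7% and higher at 8.33%. Both Baf60c KD libraries lay below both control libraries for 41 of the 72 genes, against 27.8% of all genes, and above both for 11, against 49.6% of all genes. The median log2 fold change was −0.077 for the respiratory genes and 0.068 over all genes tested.

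The balance of higher and lower calls over all genes depended on the library scaling. With the deposited scaling 66.4% of all calls were higher, and with median-ratio factors, which centre the median gene near 0, 50.3% were. With those factors 44 of the 72 respiratory genes were called lower and 5 higher, while 25.4% of all genes tested were called lower and 25.8% higher. The distance between the median of the respiratory genes and that of all genes was −0.15 on the log2 scale with the deposited scaling and −0.16 with median-ratio factors. Most changes were small: 2 of the 72 genes, Ndufa4 and Ndufa4l2, were called with a log2 change over 0.58 in size, and both fell, where 3.56% of all genes tested were lower and 4.8% higher by that much. This count depended on the pseudocount, since with 0.1 it was 5 genes, with Ndufb4 and Uqcrq also lower and Atp5g2 higher. It was 4 with voom and without control replicate 2 (Ndufb4 and Uqcrq added), 3 with median-ratio factors and without Baf60c KD replicate 2 (Uqcrq added), 3 without Baf60c KD replicate 1 (Ndufb4 added), and 1 with a minimum of 50 mean reads (Ndufa4).

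**Figure D1:**
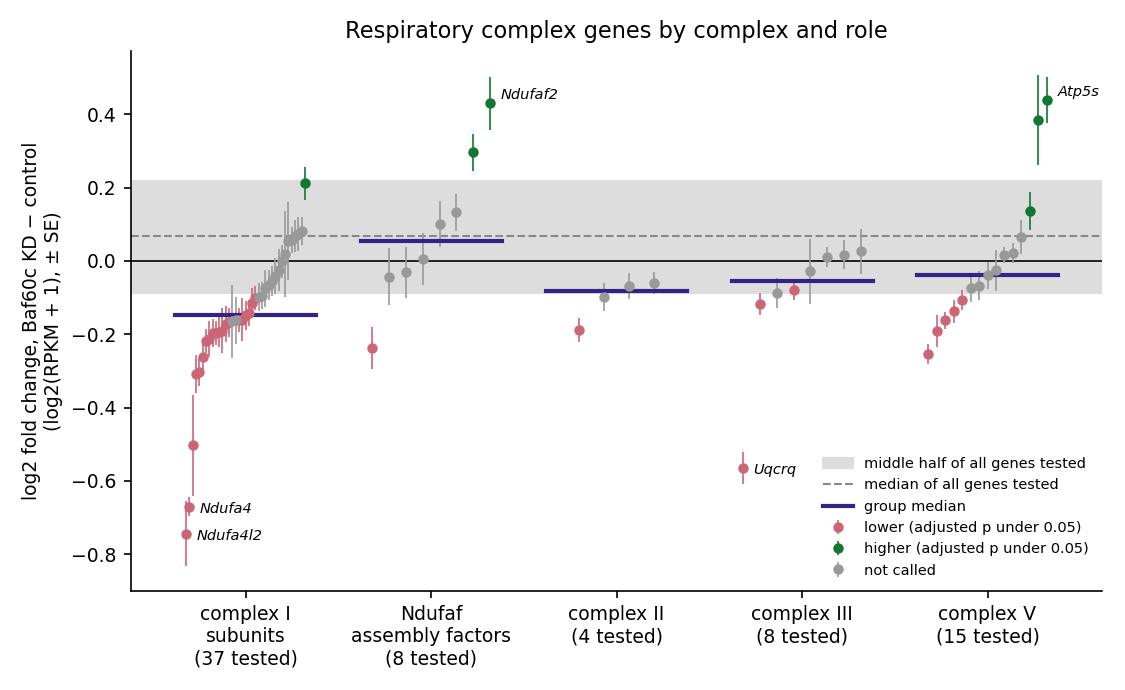
Log2 fold change (Baf60c KD minus control, on log2(RPKM + 1), with its standard error) of the 72 genes tested, by complex and role, with the group medians, the median of all genes tested (dashed) and the range between the lower and upper quartiles of all genes tested (grey). Complex I subunits reached lowest, with a median of −0.15, and the Ndufaf assembly factors had a median of 0.054.

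The plot of fold changes by complex shows the order of the groups. Complex I subunits had a median log2 fold change of −0.15, complex II of −0.083, complex III of −0.054 and complex V of −0.040, and the Ndufaf factors stood at 0.054, a sign that turned to −0.0097 with median-ratio factors. Within each group the range was wide beside these medians, and the differences between the group medians were not tested.

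Of the 37 complex I subunits tested, 20 were called lower (54.1%) and 1 higher (2.70%), against 18.2% and 36.1% of all genes tested. Both Baf60c KD libraries were below both control libraries for 24 of these subunits, against 27.8% of all genes tested. The 7 core subunits made in the nucleus, which carry the flavin and the iron-sulfur clusters and are conserved from bacteria, were all called lower, with a median log2 fold change of −0.20. Among the 28 accessory subunits tested, Ndufa4 and Ndufa4l2 not counted, 11 were lower and 1 was higher, with a median of −0.097. By position in the complex, 12 of 16 matrix arm subunits were lower (median −0.16), whereas 6 of 18 membrane arm subunits were lower and 1 was higher (median −0.082). The core subunits are part of the matrix arm, so these counts overlap. The calls of Ndufs3 and Ndufs7 were lost without control replicate 1, without Baf60c KD replicate 2 and with no filter on low values, and that of Ndufs7 also without control replicate 2.

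Ndufs1 encodes the largest iron-sulfur subunit, which takes electrons from the NADH site. It stood at 35.9 and 35.5 RPKM in control and at 28.0 and 29.6 RPKM in Baf60c KD. The Baf60c KD values were both below the control values, and the log2 fold change was −0.30 ± 0.038 (SE, n = 2 per group, limma adjusted p = 0.000141). Ndufv1, the flavoprotein that oxidises NADH, went from 46.3 and 45.2 RPKM to 39.8 and 39.8 RPKM (log2 fold change −0.20 ± 0.033, limma adjusted p = 0.000797). Its partner in that module, Ndufv2, fell by 0.22 on the log2 scale, and Ndufs3, Ndufs7 and Ndufs8, on the way to the ubiquinone site, fell by 0.19, 0.16 and 0.20. Ndufs1 shares exon bases with Gm11602 and Ndufs3 with Kbtbd4, both on the opposite strand, and reads of such pairs were not separated by strand in the counting.

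With all 4 libraries, the steepest decreases among Nduf genes were in a pair of paralogs, Ndufa4 and Ndufa4l2. Ndufa4 (chr6:11850373-11857446, minus strand, mm9) was named as a complex I subunit and is now known from human and bovine work as a subunit of complex IV. Its level was 123 and 122 RPKM in control and 76.4 and 76.8 RPKM in Baf60c KD. The replicates of each group were nearly equal and the groups far apart, and the log2 fold change was −0.67 ± 0.027 (limma adjusted p = 6.04e-08), or 62.5% of the control mean. Ndufa4l2, a paralog induced by hypoxia, was a low transcript, at 2.57 and 2.04 RPKM in control and 0.967 and 0.963 RPKM in Baf60c KD. Its log2 fold change was −0.74 ± 0.088 (limma adjusted p = 9.17e-05), resting on 57 and 43 control reads and on 21 and 28 Baf60c KD reads, and with a pseudocount of 0.1 or with voom it was −1.16 or −1.23. Ndufa4l2 (chr10:126951995-126954208, plus strand) shares exon bases with Shmt2 on the opposite strand. Without both paralogs, 18 of 35 complex I subunits were lower, 1 was higher and the median was −0.14, an alternative chosen after seeing the data.

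Ndufb4, Ndufa1 and Ndufb5 completed, with Ndufs1, the 6 complex I subunits with the largest called change. Ndufb4, a membrane arm subunit, was at 6.998 and 5.05 RPKM in control and at 4.51 and 3.37 RPKM in Baf60c KD, with −0.50 ± 0.14 as its log2 fold change (limma adjusted p = 0.0136). Its control replicates differed more from each other than those of the genes above, 41.3% of its 50-base windows also occur elsewhere in the genome, and without control replicate 1 the change was −0.30 and no longer called. Ndufa1, a small membrane arm subunit encoded on the X chromosome, went from 29.4 and 32.9 RPKM to 25.0 and 24.8 RPKM (log2 fold change −0.31 ± 0.051, limma adjusted p = 0.000738). Ndufb5, of the distal membrane arm, went from 56.7 and 50.4 RPKM to 44.8 and 44.1 RPKM (log2 fold change −0.26 ± 0.050, limma adjusted p = 0.00207), and shares exon bases with Mrpl47 on the opposite strand. In all 3 genes both Baf60c KD libraries were below both control libraries.

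The remaining subunits of complex I changed less. Ndufa6, a matrix arm subunit with the highest complex I level over all 4 libraries (99.9 RPKM, beside 99.5 RPKM for Ndufa4, which was higher in control), was at 103 and 105 RPKM in control and at 100.3 and 91.5 RPKM in Baf60c KD, and its log2 fold change of −0.11 ± 0.041 (limma adjusted p = 0.0407) was past the threshold by little. Its size depended on Baf60c KD replicate 2, without which it was −0.048, and the call was also lost when either control library was left out and with no filter on low values. Ndufb3, a membrane arm subunit, was the gene called higher, with a log2 fold change of 0.21 from 16.1 and 16.3 RPKM to 18.3 and 19.6 RPKM. The 16 subunits that were not called had log2 fold changes from −0.16 to 0.081.

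**Figure D2:**
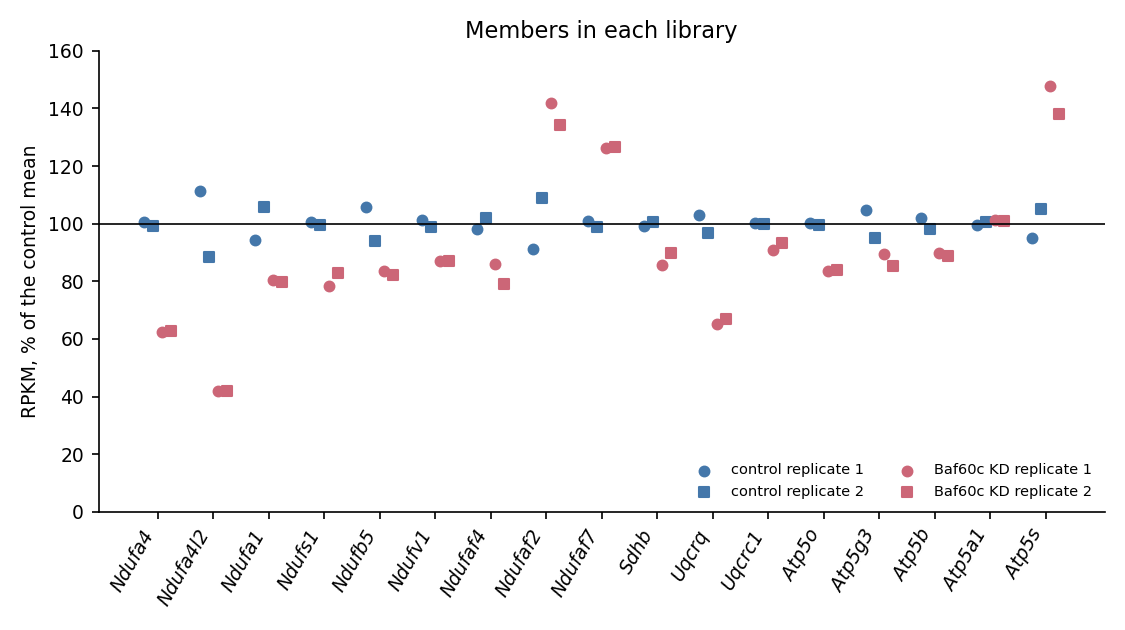
RPKM of 17 respiratory genes in each of the 4 libraries, as a percentage of the gene's control mean (line at 100). Circles are replicate 1 and squares replicate 2. Ndufa4 and Uqcrq sat between 62.3% and 66.9% in both Baf60c KD libraries, Atp5a1 near 101%, and Ndufaf2, Ndufaf7 and Atp5s above 126%.

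Of the 8 Ndufaf assembly factors, 2 were called higher and 1 lower. These shares, 25% and 12.5%, were near those of all genes tested, 36.1% and 18.2%, so the group is no result of its own. It contrasts with the subunits by its counts, but the groups also differed in level. The median of the mean levels was 6.59 RPKM for the Ndufaf genes and 37.98 RPKM for the complex I subunits tested. The part of level in the number of calls was not tested. Ndufaf2, a chaperone that binds a late assembly intermediate, was at 8.56 and 10.2 RPKM in control and at 13.3 and 12.6 RPKM in Baf60c KD (log2 fold change 0.43 ± 0.073, limma adjusted p = 0.000977). Ndufaf7, a methyltransferase needed for complex I assembly, went from 6.24 and 6.11 RPKM to 7.80 and 7.83 RPKM (log2 fold change 0.30 ± 0.050, limma adjusted p = 0.000881). Both genes were higher in each Baf60c KD library than in each control library, as seen in the plot of values by library. Ndufaf4, which acts early in assembly together with Ndufaf3, went the other way, from 6.31 and 6.55 RPKM to 5.52 and 5.09 RPKM (log2 fold change −0.24 ± 0.058, limma adjusted p = 0.00699). Without Baf60c KD replicate 2 it was −0.19 and no longer called. The other 5 had log2 fold changes from −0.043 to 0.13 and were not called.

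All 4 genes of complex II were lower in both Baf60c KD libraries than in both control libraries, against 27.8% of all genes tested. The 1 gene called lower is 25% of the group, near the 18.2% of all genes tested. Sdhb, the iron-sulfur subunit, was at 72.5 and 73.5 RPKM in control and at 62.5 and 65.5 RPKM in Baf60c KD (log2 fold change −0.19 ± 0.033, limma adjusted p = 0.00106). Sdha, the flavoprotein that oxidises succinate, was at 68.8 and 67.7 RPKM against 65.6 and 65.2 RPKM. Its log2 fold change of −0.060 had a 95% interval from −0.13 to 0.0057. The membrane anchors Sdhc and Sdhd were at 41.2 and 39.5 RPKM against 38.6 and 38.3 RPKM, and at 67.2 and 62.4 RPKM against 59.6 and 61.2 RPKM. Their log2 fold changes were −0.068 and −0.098, and neither was called. With median-ratio factors Sdha, Sdhc and Sdhd were called lower too, at −0.14, −0.14 and −0.18.

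Complex III, which passes electrons from ubiquinol to cytochrome c, had 3 of 8 genes called lower and 0 higher. These shares, 37.5% and 0%, stand against 18.2% and 36.1% of all genes tested. Of the 3 genes called lower, 1 stood far from the rest. Uqcrq (chr11:53241424-53244333, minus strand, mm9), a small subunit near the ubiquinone site, was at 22.1 and 20.7 RPKM in control and at 13.96 and 14.3 RPKM in Baf60c KD. The groups did not overlap, and the log2 fold change was −0.57 ± 0.044 (limma adjusted p = 5.54e-06). The core proteins Uqcrc1 and Uqcrc2 were higher in level and changed less. Uqcrc1 went from 70.5 and 70.1 RPKM to 63.8 and 65.6 RPKM (log2 fold change −0.12 ± 0.030, limma adjusted p = 0.00848), and Uqcrc2 from 91.7 and 90.8 RPKM to 85.8 and 86.8 RPKM (log2 fold change −0.080 ± 0.027, limma adjusted p = 0.0332). These decreases were no longer called without Baf60c KD replicate 1, at −0.099 and −0.072. That of Uqcrc2 was also lost without control replicate 1 (−0.072) and without Baf60c KD replicate 2 (−0.087), and Uqcrc2 shares exon bases with Pdzd9 on the opposite strand.

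Uqcrfs1, the Rieske iron-sulfur protein, was at 68.6 and 63.1 RPKM in control and at 62.0 and 61.7 RPKM in Baf60c KD. Both Baf60c KD libraries were lower, and the log2 fold change of −0.088 was not called (95% interval −0.18 to 0.0021). Uqcr10, Uqcr11, Uqcrb and Uqcrh overlapped between the groups. Cyc1, the cytochrome c1 of the complex, which the name rule did not take in, was at 69.2 and 65.1 RPKM against 63.6 and 60.02 RPKM, a log2 fold change of −0.12 that was called and was lost without control replicate 1, without Baf60c KD replicate 2 and with no filter on low values.

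In complex V, 5 of the 15 genes tested were lower (33.3%) and 3 higher (20%), against 18.2% and 36.1% of all genes tested. Atp5b, the catalytic beta subunit and the most abundant of all 75 genes, was at 531 and 511 RPKM in control and at 468 and 464 RPKM in Baf60c KD. Its groups did not overlap, and the log2 fold change was −0.16 ± 0.023 (limma adjusted p = 0.000287). Atp5a1, the alpha subunit that forms the same ring as Atp5b, was at 266 and 269 RPKM against 271 and 270 RPKM. Its log2 fold change of 0.017 was not called (95% interval −0.031 to 0.065), and with median-ratio factors it was −0.061 and called lower, so its direction was set by the scaling. Atp5o, of the peripheral stalk, had the largest called decrease in complex V, from 96.1 and 95.5 RPKM to 80.0 and 80.3 RPKM (log2 fold change −0.25 ± 0.027, limma adjusted p = 4.47e-05), and shares exon bases with Donson on the same strand. Atp5c1 (gamma) and Atp5f1 (subunit b of the stalk) fell by 0.11 and 0.14 on the log2 scale, and both calls were lost without Baf60c KD replicate 2.

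Of the 3 genes called higher, Atp5s and Atp5sl were named for ATP synthase but are not among its core subunits. Atp5s, first described as coupling factor B, was at 4.51 and 5.00 RPKM in control and at 7.03 and 6.57 RPKM in Baf60c KD, a log2 fold change of 0.44 ± 0.063 (adjusted p = 0.000312 by limma). This was the largest increase among the 72 genes with the pseudocount of 1, and with a pseudocount of 0.1 that of Atp5g2 was larger, 0.80 against 0.51. Atp5sl, which in human cells takes part in assembly of the distal membrane arm of complex I, was at 8.64 and 8.79 RPKM against 10.0 and 9.34 RPKM. Its log2 fold change of 0.14 passed the threshold narrowly (limma adjusted p = 0.0481). That call was lost with median-ratio factors, with the replicate number as a block, with voom, with no filter on low values and when either control library or Baf60c KD replicate 1 was left out. Without Ndufaf, Atp5s and Atp5sl, 29 of the 62 subunits tested were lower and 2 higher, and their median was −0.098.

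The c ring of ATP synthase is built from 1 protein encoded by 3 genes, Atp5g1, Atp5g2 and Atp5g3, whose mature products are identical. Atp5g3 held nearly all of the measured level, with 214 and 194 RPKM in control and 182 and 174 RPKM in Baf60c KD (log2 fold change −0.19 ± 0.044, limma adjusted p = 0.00565). Atp5g1 was listed at 0.38 and 0.69 RPKM against 0.28 and 0.50 RPKM and was not tested. Atp5g2 was listed at 0.40 and 0.71 RPKM against 1.24 and 0.82 RPKM, and its called increase (log2 fold change 0.38 ± 0.12, limma adjusted p = 0.0259) rested on 6 and 10 control reads and on 18 and 16 Baf60c KD reads. The call of Atp5g2 was lost with no filter on low values, with voom on the recovered reads, without control replicate 1 (0.24) and without Baf60c KD replicate 1 (0.24).

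Low levels like these coincided with copies of the transcript elsewhere in the genome. The share of 50-base windows of each transcript that occur again, exactly, elsewhere in the mm9 genome was computed for all 75 genes, and for 41 of them it was 0. It exceeded 70% for 5 genes, and these were the same 5 genes that stayed under 2 RPKM in every library: 73.8% for Atp5g1, 76.7% for Ndufab1, 80.0% for Ndufs5, 89.4% for Atp5l and 100% for Atp5g2. Among the other 70 genes the lowest mean level was 1.63 RPKM, that of Ndufa4l2. The match depends on these limits, since Atp5h (67.9%) and Uqcrb (61.5%) had mean levels of 28.3 and 14.6 RPKM. Over all 75 genes the Spearman correlation of the share with the mean level was −0.26. Ndufab1, the mitochondrial acyl carrier protein bound to complex I, was listed at 0.98 and 1.49 RPKM in control and 1.28 and 1.33 RPKM in Baf60c KD. Ndufs5, a subunit of the membrane arm, had 0 and 1 control reads and 0 and 2 Baf60c KD reads, where a count of 0 in replicate 1 allows up to 0.256 RPKM in the control library and 0.262 RPKM in the other (3 reads, counting error only). Atp5l, subunit g of the synthase, had between 1 and 4 reads per library. The sources used here do not say how reads that match several places were counted, so the levels of these 5 genes are uncertain.

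**Figure D3:**
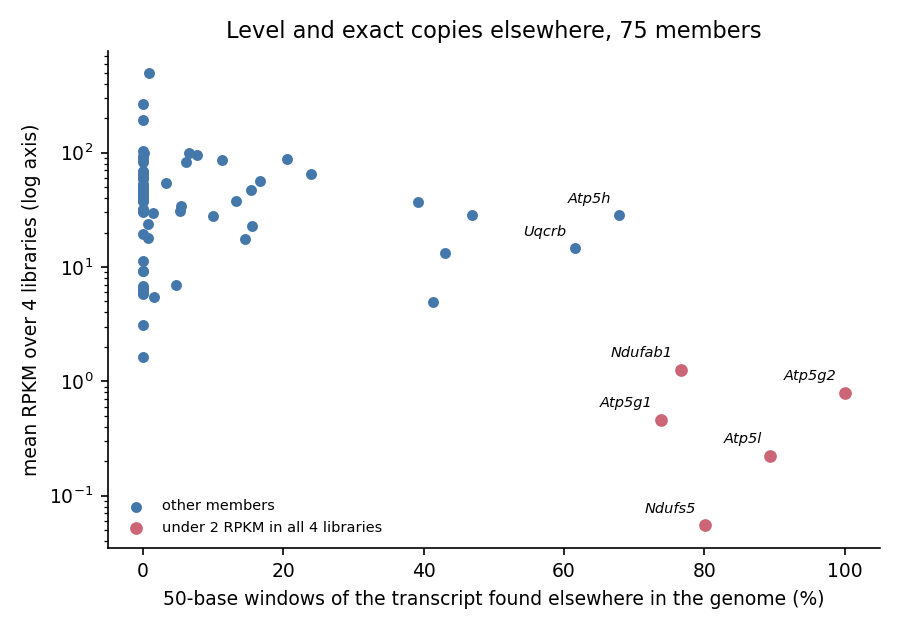
Mean RPKM over the 4 libraries (log axis) against the percentage of 50-base windows of the transcript found elsewhere in the mm9 genome, 1 point per gene for all 75 genes. The 5 genes under 2 RPKM in all 4 libraries lie at 73.8% or more.

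A window from each of the 3 transcripts with most of their length copied shows what a read would meet. The windows are printed 5′ to 3′ along the transcript, in lower case throughout because the whole run is what recurs, and lie in Atp5g2 (chr15:102493299-102501478, minus strand), Atp5l (chr9:44721333-44728825, minus strand) and Ndufs5 (chr4:123389953-123395445, minus strand), all in mm9. The Atp5g2 window has 4 further exact copies in the genome, the Atp5l window 9 and the Ndufs5 window 1.
Atp5g2: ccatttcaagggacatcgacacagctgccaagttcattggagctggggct
Atp5l: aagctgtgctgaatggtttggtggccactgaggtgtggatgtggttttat
Ndufs5: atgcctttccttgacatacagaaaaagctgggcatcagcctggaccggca

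Without the 7 genes with over 50% of their windows found elsewhere (these 5, Atp5h and Uqcrb), an alternative chosen after seeing the data, 30 genes were still lower and 5 higher. Of the 36 called genes, 28 share no exon bases with another annotated gene.

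Other genes of the pathway were read from lists chosen by function, and their counts stand beside the 18.2% of all genes tested that were lower and the 36.1% that were higher. Among 9 further assembly factors of complex I, 2 were lower (Timmdc1 at −0.22 and Ecsit at −0.19) and 2 higher (Tmem186 at 0.18 and Aifm1 at 0.15). Ecsit was no longer called without control replicate 1 (−0.095) and with no filter on low values. Timmdc1 helps to build the membrane arm, and Ecsit works with Ndufaf1. Of 4 complex II assembly factors, Sdhaf1 was lower (−0.21) and Sdhaf3 higher (0.33), and both help to mature the iron-sulfur subunit Sdhb. Of 7 genes around complex III, Cyc1 and Ttc19 were lower (Ttc19 at −0.31) and Bcs1l, which places the Rieske protein in the complex, was higher (0.28). Of 6 genes around complex V, 2 were higher: Tmem70, an assembly factor (0.20), and Atpif1, the inhibitor of ATP hydrolysis (0.17).

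Of 15 complex IV subunits tested, 5 were lower (33.3%) and 2 higher (13.3%), and the median was −0.066. The heart and muscle isoforms Cox6a2 and Cox7a1 had the largest decreases, Cox6a2 from 57.8 and 61.5 RPKM to 6.19 and 6.09 RPKM and Cox7a1 from 6.46 and 6.04 RPKM to 2.20 and 2.28 RPKM. Cox6b2 had the largest increase, from 7.03 and 7.70 RPKM to 15.2 and 14.5 RPKM (log2 fold change 0.92).

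Of 16 regulators of mitochondrial genes tested, 5 were called higher (31.2%) and 4 lower (25%), shares near the 36.1% and 18.2% of all genes tested, and the median was 0.061. Esrrg, a nuclear receptor that drives oxidative genes in the heart, was at 17.1 and 16.8 RPKM in control and at 5.70 and 6.04 RPKM in Baf60c KD (log2 fold change −1.39). Its relative Esrra went from 5.36 and 5.56 RPKM to 3.67 and 3.46 RPKM (log2 fold change −0.50). The coactivators of these receptors, Ppargc1a and Ppargc1b, fell by 0.56 and 0.48 on the log2 scale, and Ppargc1a was below 1 RPKM in every library. At such levels the pseudocount of 1 understates the change. The difference in mean RPKM was −71.1% of the control mean for Ppargc1a and −40.7% for Ppargc1b. The 4 lower genes are 2 receptors and 2 coactivators, and any part of theirs in the levels of the respiratory genes was not tested. The regulators called higher were Pprc1 (0.37), the mitochondrial RNA polymerase Polrmt (0.32), Mterf1a (0.31), the helicase Twnk (0.26) and the single-strand binding protein Ssbp1 (0.24). Mterf1a was a low transcript, resting on 22 and 14 control reads and on 26 and 44 Baf60c KD reads. Nrf1 and Gabpa, factors known to bind promoters of respiratory genes, were at 10.4 and 9.48 RPKM against 10.5 and 10.7 RPKM, and at 15.0 and 15.1 RPKM against 15.4 and 14.6 RPKM, and neither was called. Tfam, which packages mitochondrial DNA, was not called either (0.12).

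**Figure D4:**
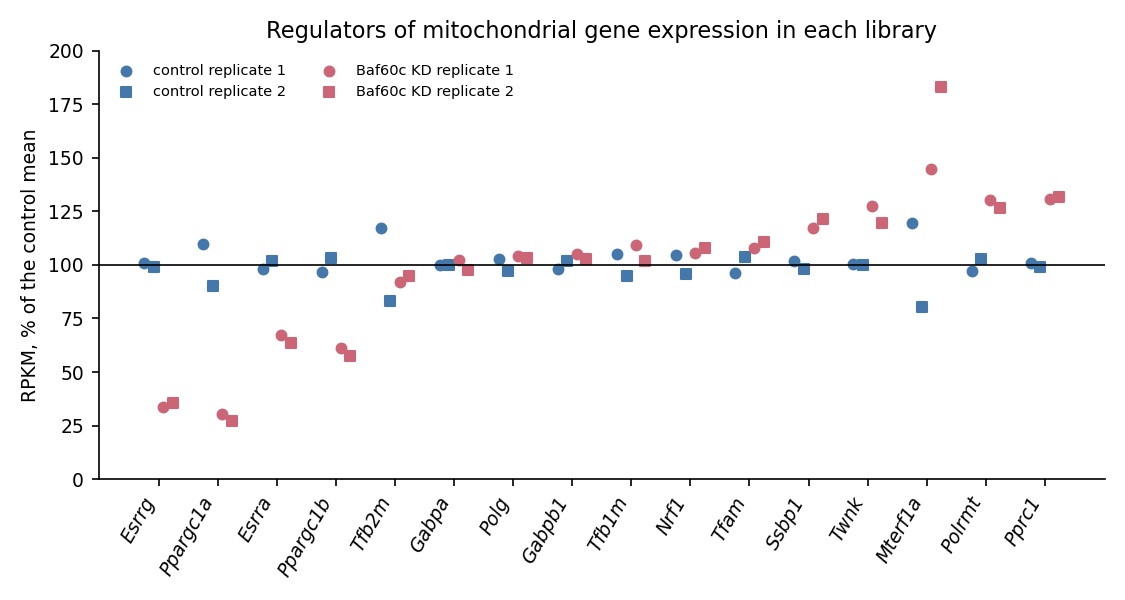
RPKM of 16 regulators of mitochondrial gene expression in each library, as a percentage of the gene's control mean (line at 100), ordered by log2 fold change. Circles are replicate 1 and squares replicate 2. Esrrg, Ppargc1a, Esrra and Ppargc1b lie well below 100 in both Baf60c KD libraries, with Esrrg between 5.70 and 6.04 RPKM against a control of 16.8 to 17.1 RPKM.

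Genes of the mitochondrion outside the respiratory chain were read beside the same shares, 36.1% higher and 18.2% lower over all genes tested. Among 15 genes of protein import, 4 were higher (26.7%) and 2 lower (13.3%), with Timm8b (0.44) and Timm23 (−0.37) the largest in each direction. Timm23 was a low transcript, at 1.42 and 1.42 RPKM in control and 0.878 and 0.856 RPKM in Baf60c KD. It rested on 38 and 36 control reads and on 23 and 30 Baf60c KD reads. Among 12 further mitochondrial genes, 2 were higher (16.7%) and 5 lower (41.7%). Citrate synthase, Cs, went from 85.6 and 84.0 RPKM to 67.2 and 66.4 RPKM (log2 fold change −0.34), and the chaperone Hspa9 from 158 and 162 RPKM to 130 and 132 RPKM (−0.28), whereas the chaperone Hspd1 rose by 0.24 and the prohibitin Phb2 by 0.14.

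Promoters were searched for the letters of 4 motifs, on both strands, in the 250 bases before each start site given by RefSeq (GRCm38.p6), since factors of these families are known to act on respiratory genes. Of the 75 genes, 64 matched an entry, and those with none included Atp5a1, Ndufa2, Ndufa4l2, Ndufaf6, Ndufb9, Ndufs1, Sdhc, Uqcrb, Uqcrc2 and Uqcrq. A gene was counted when any of its start sites had a match. The NRF1 letters GCGCATGCG were found in 6 of 64 (9.38%) and in 1.64% of all 27025 genes with an entry. Those 27025 genes were not limited to genes expressed in CPCs, so the shares are not like for like. The ETS letters CCGGAAG, the core that Gabpa binds, were found in 12 (18.75%) against 7.83% of all genes with an entry. The ESRRA letters TCAAGGTCA were found in 1 respiratory gene, against 0.422% of all, and the YY1 letters AAGATGGCG in 2, against 0.710%. None of the 4 runs of letters contains another. By call, the ETS letters were present in 1 of 23 genes called lower, 0 of 6 called higher and 10 of 32 not called. The NRF1 letters were present in 1 of 23, 1 of 6 and 3 of 32. Genes that were not tested are outside this split. No test was made of these counts. A match is a run of letters, and binding was not measured.

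The 2 promoters printed are those of genes called lower that hold an NRF1 or an ESRRA match, with the match in capitals, 5′ to 3′ on the strand of the gene. For Ndufaf4 (chr4:24897833-24898082, plus strand, GRCm38.p6) the capitals mark the NRF1 letters, which match on both strands there and overlap, so that the run is 10 bases long. For Atp5g3 (chr2:73911327-73911576, minus strand, GRCm38.p6) they mark the ESRRA letters read on the opposite strand.
Ndufaf4: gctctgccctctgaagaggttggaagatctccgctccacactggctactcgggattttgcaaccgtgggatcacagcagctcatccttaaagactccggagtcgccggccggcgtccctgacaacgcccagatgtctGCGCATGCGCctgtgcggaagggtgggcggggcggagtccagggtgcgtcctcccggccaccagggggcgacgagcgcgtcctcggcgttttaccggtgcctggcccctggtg
Atp5g3: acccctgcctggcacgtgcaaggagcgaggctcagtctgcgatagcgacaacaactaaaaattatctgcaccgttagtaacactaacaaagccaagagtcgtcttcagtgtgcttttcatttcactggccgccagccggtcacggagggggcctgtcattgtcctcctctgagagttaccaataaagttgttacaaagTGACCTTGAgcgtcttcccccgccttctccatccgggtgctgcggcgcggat

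The group medians kept their order at both ends under every setting tried. Complex I subunits had the lowest and the Ndufaf factors the highest of the 5 medians in each of the 12 settings. Complex I ranged from −0.23 with median-ratio factors to −0.11 without control replicate 1. The Ndufaf median ranged from −0.0097 with median-ratio factors to 0.098 without control replicate 1, and complexes II, III and V, whose order changed between settings, stayed below 0 throughout.

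**Figure D5:**
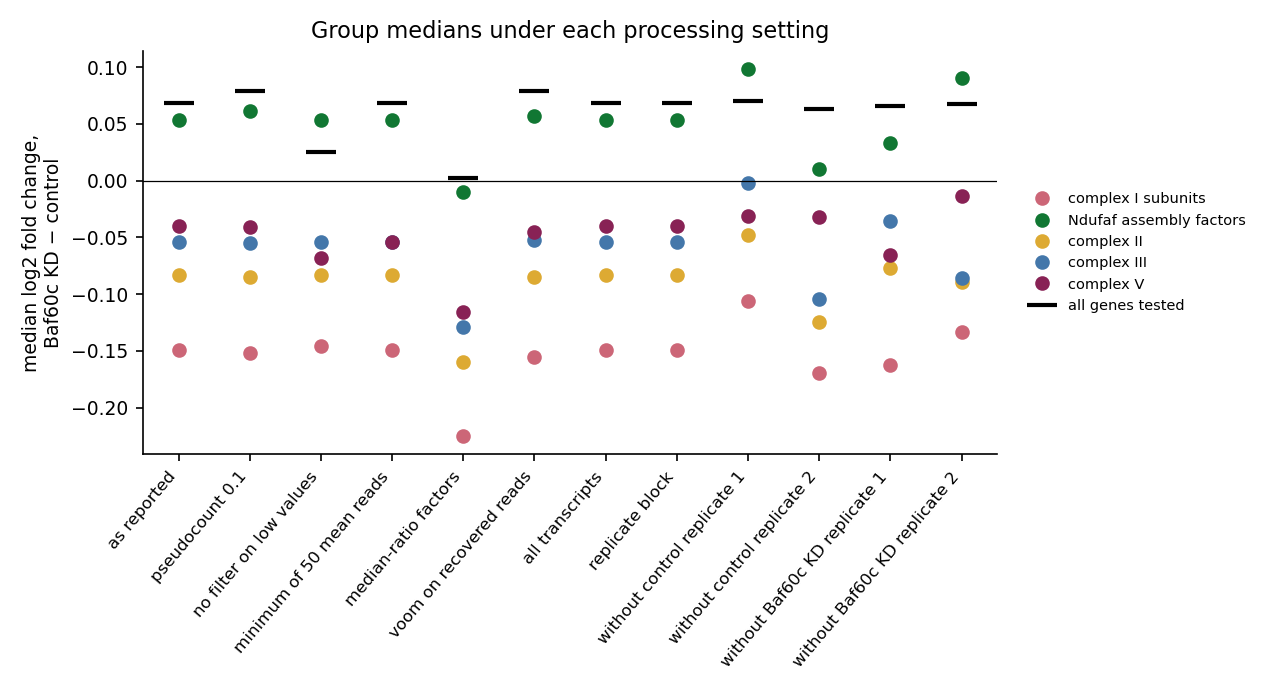
Median log2 fold change (Baf60c KD minus control) of each group and of all genes tested under the reported setting and 11 alternatives. Complex I subunits are lowest in every column and the Ndufaf factors highest, and with median-ratio factors all groups move down together with the median of all genes.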

How the data were processed

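Libraries came from sorted day 5 CPCs and were made with a stranded mRNA kit. According to the study's methods, reads were mapped by the authors to mm9 with STAR, counted with HOMER over exons of RefSeq transcripts on both strands, and converted to RPKM with edgeR, and versions are not given in the sources used here. The values used were the deposited RPKM, and the deposited transcript length. The table also holds the authors' DESeq2 comparison, its mean signal of normalised reads, log2 fold change and unadjusted p-value, none of which was used. It had 35707 rows in 2 separately normalised blocks, and the first block of 31507 rows was used. RPKM times length and library total gave whole reads for 100% of values (tolerance 0.001 reads). The replicates of a group differed by more than counting noise (chi-square per degree of freedom 1.52 in control and 1.17 in Baf60c KD).

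For each gene symbol the transcript with most mean reads was kept. Genes with a mean of at least 0.5 RPKM were fitted with limma 3.58.1 in R 4.3.3 on log2(RPKM + 1), with trended, robust moderation of the variance and no covariate, and p-values were adjusted by Benjamini-Hochberg over all 11371 genes. The pseudocount of 1 understates the change of low genes. The script was tested on simulated data. Positions, exon overlaps and the 50-base windows came from the NCBIM37 genome (mm9) and its GENCODE annotation, with the transcript nearest in length to the deposited one for the windows. Promoters came from RefSeq, GRCm38.p6.

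The members and gene lists were chosen with earlier results of these data known, and 1 gene of unsure role was dropped from a list afterwards. Genes given in full were, for each group, those called with the largest changes (6 in complex I, 4 in complex V, 3 elsewhere) and the most abundant, with Smarcd3, complex II, the c subunit genes, Ndufa4, Ndufa4l2, Atp5a1, Atp5b, Ndufv1, Ndufs1 and Uqcrfs1 whatever their values. For the other pathway lists they were the 2 called genes with the largest changes and Cyc1. Other genes named with values, among them Ndufb3, Ndufab1, Esrra, Nrf1 and Gabpa, were chosen after their values were seen. Alternatives were another pseudocount and other filters on low values, median-ratio scaling, voom on recovered reads, all transcripts, a replicate block, and each library left out in turn. The values of 1 gene are not reported here.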

Additional observations from a re-analysis of the deposited data

How the results depend on the processing

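With 2 libraries per group, the spread within a group rests on few values. The labels do not say whether pools with the same replicate number were handled together. The deviations of same-numbered libraries had a correlation of 0.0242 over 11371 genes, which shows no shared effect but cannot settle whether they were paired. With the replicate number as a block, 35 of the 36 calls among the respiratory genes were kept, that of Atp5sl was lost and Ndufa11 was called lower, and 6166 genes were called in all.

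When all 19001 transcripts were tested together, 10317 were called, 6745 of them higher and 3572 lower. With median-ratio factors 35 of the 36 calls were kept and 14 were added. The medians then stood at −0.15 over all respiratory genes, −0.23 for complex I, −0.0097 for the Ndufaf factors, −0.16 for complex II, −0.13 for complex III and −0.12 for complex V, the median of all genes moved from 0.068 to 0.0021, 4 genes of complex II and 9 of complex V were lower, and Atp5a1 turned to −0.061. With no filter on low values, 30 of 36 calls were kept, the complex V median was −0.068 and 1 gene of complex V was higher. With voom 34 of 36 were kept, 2 genes of complex II were lower and 1 of complex V was higher. All 36 calls were kept with a pseudocount of 0.1.

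Leaving out 1 library at a time gave between 5290 and 5949 calls over all genes, 3528 to 3999 of them higher and 1762 to 2027 lower. Between 28 and 32 of the 36 calls were kept, with 25 to 39 respiratory genes lower and 5 to 9 higher and a median between −0.12 and −0.066. For complex I, 16 to 23 subunits were lower and 1 to 3 higher, with a median from −0.17 to −0.11. For the Ndufaf factors 0 to 1 were lower and 2 to 3 higher, with a median from 0.0100 to 0.098, and the 0 was without Baf60c KD replicate 2. For complex II 1 to 3 were lower (median −0.12 to −0.047), for complex III 1 to 5 lower and 0 to 1 higher (median −0.10 to −0.0019), and for complex V 3 to 7 lower and 1 to 3 higher (median −0.066 to −0.014). The cause of these shifts was not tested. An arm with 1 library was assumed to vary like the other group.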
